A study of Homo sapiens with 14 samples.

Results

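R5 is 1 of 5 sublines of OVCAR-3, an established cell line from a high-grade serous ovarian carcinoma, that were made resistant to PHA-533533, an inhibitor of the cell-cycle kinase CDK2. It was sampled on 2 of the 14 arrays of the study, 1 labelled selected and 1 labelled stable, and both are compared here with the 4 arrays of parental OVCAR-3. The selected R5 cells were at passage 5 and grew in 4 µM PHA-533533. The stable R5 cells were at passage 10 or later and had been carried on with 0 µM inhibitor. The parental cells carried no selection and grew in the same serum-containing medium without inhibitor. The other sublines, R1, R3, R6 and R7, were each sampled in the same 2 states. No group carries an engineered allele in the labels. Each R5 state has 1 array, so inhibitor and passage cannot be told apart within R5, and a difference between R5 and parental cells belongs to 1 subline. The labels do not say that the 4 parental arrays came from separate cultures, so the scatter among them may be technical. A p-value here measures only how far arrays scatter.

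CDK2 with its partner cyclin E drives cells from G1 into DNA replication, and OVCAR-3 is known for an amplified cyclin E gene (CCNE1), which is why the line is used to study CDK2 inhibitors. The genes that were proposed as marks of R5 have unrelated roles. OSMR is the receptor subunit for oncostatin M and pairs with the shared signalling chain gp130 (IL6ST) to activate JAK and STAT proteins. NPNT encodes nephronectin, a matrix protein that binds integrins, and LETM2 is a relative of the inner mitochondrial membrane protein LETM1. ATF4 is the transcription factor at the centre of the integrated stress response and switches on genes for amino acid synthesis and transport.

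RNA level is given as deposited log2 signal, on which a difference of 1 is a 2-fold change. All 18398 genes with a named row were tested with limma (R5 minus parental, all 14 arrays in 6 groups by subline). The spread in this fit is pooled within the 6 groups. In each subline it includes the difference between the selected and the stable array, which widens it. A gene was called when its Benjamini-Hochberg adjusted p over all genes was under 0.05. A gene was outside the parental range when both R5 arrays were above the highest or both below the lowest parental array. It was outside in R5 alone when no other subline had both of its arrays outside on the same side. Array medians over all rows lay between 7.54 and 7.68. The 340 olfactory receptor genes, which these cells have little reason to express and which track background signal, averaged 6.50 and 6.60 in R5 and 6.16 to 6.71 in the parental arrays (exact permutation test, two-sided, p = 0.533, where the smallest p that 2 against 4 arrays can give is 0.0667).

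The arrays were first set against their labels. The 2 R5 arrays were the 2 highest or the 2 lowest of all 14 arrays in 173 genes. The R5 selected array formed such a pair with the R7 stable array in 300 genes and with the R6 stable array in 206. By comparison, the own pairs of R1 and R6 were extreme together in 2179 and 571 genes, whereas the R7 selected array paired with the R1 stable array in 1432 genes and with its own stable array in 67. With a gap of at least 0.5 to the next array, no gene set the R5 pair apart. The own pairs of R6 and R7, and R5 selected with R7 stable, also had 0 genes at that gap. The own pairs of R1 and R3 had 5 and 2, and R3 selected with R1 stable had 1. After subtracting the mean of each growth state, the R5 selected array correlated at 0.371 across genes with the R5 stable array and at 0.637 with the R7 stable array. They were 0.208 and 0.331 once the slope on the olfactory receptor mean was removed. The R7 selected array correlated at 0.397 with the R1 stable array and at -0.468 with its own stable array, and at -0.023 and -0.130 after that removal. The R3 selected array correlated at 0.050 with its own stable array and at 0.118 with the R5 stable array, and at 0.073 and 0.102 after the removal. It was extreme together with its own stable array in 374 genes and with the R1 stable array in 277. Genes are not independent replicates, and the values are descriptions. The R5 and R7 labels are therefore in some doubt, and by correlation the R3 labels are not clearly borne out either. Results are also given without R7 or without either R5 array where these change a call.

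Both R5 arrays had high mean signal for markers of an epithelial ovarian cancer line, but below the parental range. The mean of 9 ovarian carcinoma markers was 11.55 and 11.38 in R5 against 11.60 to 11.88 in parental cells. Of these markers 1 was above the parental range and 2 below (33.3% outside, beside 15.8% of all genes). Their median difference was -0.09. PAX8, the lineage factor of serous ovarian carcinoma, was 11.64 and 12.13 in R5 against 11.76 to 12.15 in parental cells. The epithelial genes KRT7 (12.79 and 13.01), KRT8 (13.23 and 12.88), KRT18 (12.68 and 12.61) and EPCAM (11.84 and 11.87) were high on both. MUC16, which encodes the tumour marker CA125, was 9.73 and 10.07 in R5 and 10.52 to 11.36 in the parental arrays, outside the range but not called (difference -1.14, adjusted p = 0.187). KRT19 was 10.76 and 8.98 in R5 and 10.80 to 11.69 in the parental arrays, with nearly all of the distance in the stable array. Marker genes of other cells were checked by their mean signal. The mean of 11 fibroblast markers was 6.79 and 6.84 in R5 and 6.60 to 6.93 in parental cells, and that of 11 leukocyte markers was 6.84 and 6.83 against 6.69 to 6.91. Endothelial markers averaged 6.88 and 6.93 against 6.73 to 6.98, and mesothelial markers 7.46 and 7.62 against 7.46 to 7.54. Of the 11 fibroblast markers 1 was above the parental range and 1 below, of the leukocyte markers 1 was above, of 10 endothelial markers 0 were outside and of 7 mesothelial markers 1 was below. In cultures measured in bulk, fewer cells of a kind and less RNA per cell cannot be told apart.

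Of the 18398 genes, 11 (0.0598%) were called between R5 and parental cells, 4 higher in R5 (0.0217%) and 7 lower (0.038%). At an unadjusted p under 0.05 there were 1152 genes (6.26%), 461 higher (2.51%) and 691 lower (3.76%). The split of the calls was 0 higher and 2 lower after median centring and 11 higher and 12 lower with the olfactory covariate. The 4 genes that rose encode a cytokine receptor (OSMR), a matrix ligand of integrins (NPNT), a mitochondrial membrane protein (LETM2) and an auxiliary subunit of voltage-gated calcium channels (CACNA2D1). The genes that fell were VIT and LTBP1, which encode secreted matrix proteins, the stress factor ATF4, the adhesion scaffold NEDD9, the galectin LGALS14, the fatty acid oxidation enzyme ECH1 and the small nucleolar RNA SNORD42A. All 11 had both R5 arrays outside the parental range, and 0 of the 11 were outside in R5 alone. The calls were made with both R5 arrays: 0 genes were called when either was left out, 1 without parental replicate 2, 5 without parental replicate 4 and 15 without subline R7. There were 47 with the R5 and parental arrays fitted alone and 48 with growth condition as a term.

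**Figure D1:**
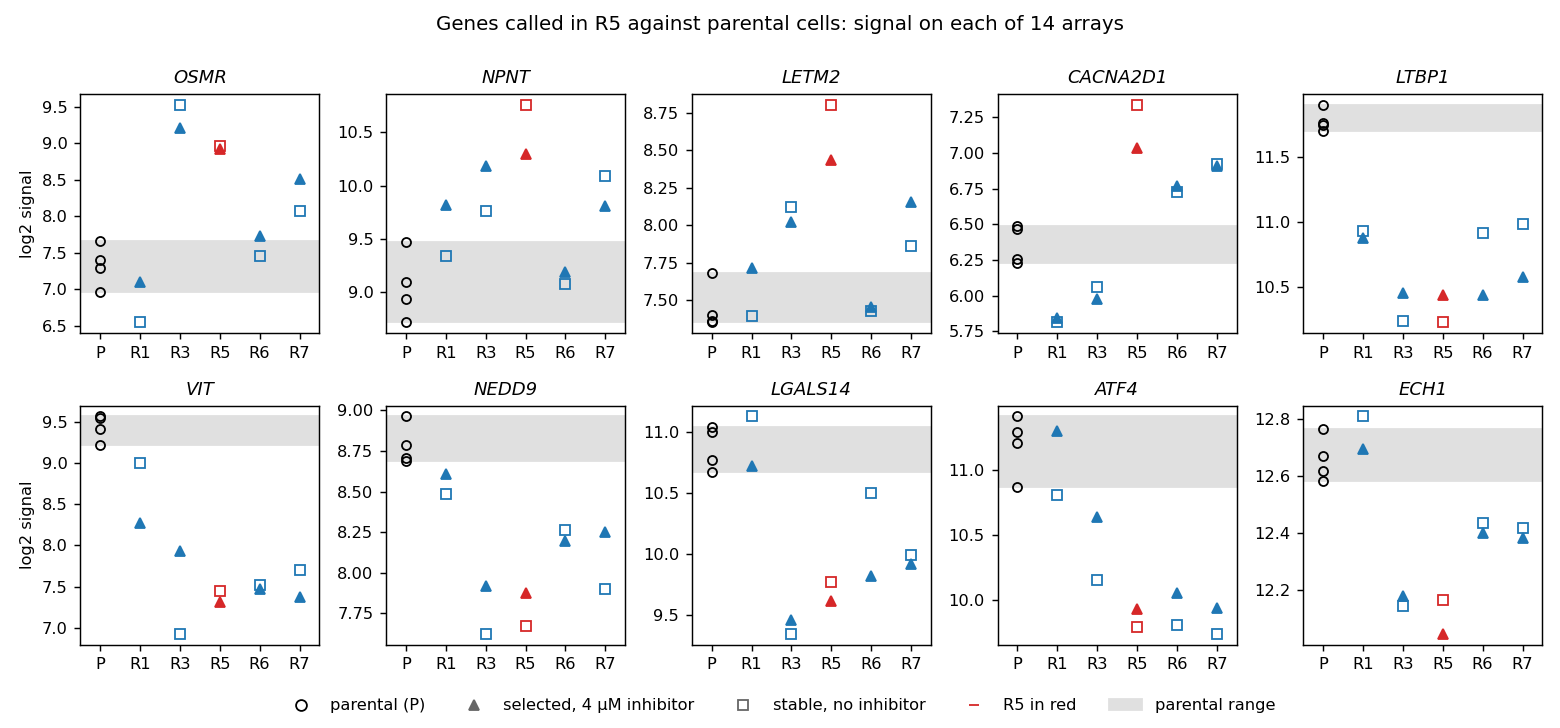
Log2 signal of 10 genes called in R5 against parental cells, 1 panel per gene, with subline on the x axis. Circles are the 4 parental arrays, triangles selected arrays, squares stable arrays, red marks R5 and the grey band the parental range. Both R5 arrays lie outside the band in every panel, and in OSMR the R3 arrays at 9.21 and 9.52 lie above R5.

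OSMR was 7.66, 7.29, 7.41 and 6.96 on the 4 parental arrays and 8.92 and 8.97 on the selected and stable R5 arrays. The R5 arrays were close to each other and well above every parental array. The difference was 1.61 (SE 0.20, adjusted p = 0.0149). That call was lost in 4 of 16 alternative settings, among them median centring (adjusted p = 0.0631). OSMR was not particular to R5: it was 9.21 and 9.52 in R3 and 8.51 and 8.07 in R7, both above the parental range, while R6 (7.74 and 7.45) and R1 (7.10 and 6.55) each had 1 array inside that range. Against the mean of the other 4 sublines R5 was 0.93 higher, which was not called (SE 0.19, adjusted p = 0.764), and against R3 alone it was 0.42 lower.

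The shared chain of the OSMR receptor and its ligand did not follow OSMR. IL6ST, the shared gp130 chain, was 9.86 and 9.83 in R5 against 9.53 to 9.88 in parental cells, and LIFR, the neighbouring receptor gene on chromosome 5, was 7.80 and 7.47 against 7.36 to 7.61. The ligand OSM was 7.31 and 7.32, inside the parental range of 7.14 to 7.47. STAT3 was 10.75 and 10.56 against 10.36 to 10.59, and SOCS3, a feedback target of STAT3, was 8.95 and 8.79 against 8.67 to 8.80, so neither had both R5 arrays outside. Among 32 measured genes of gp130 cytokine signalling, OSMR was the only call, 4 were above the parental range and 1 below (15.6% outside, beside 15.8% of all genes). After quantile normalization 7 were above and 1 below, where the count above over all genes rose from 1533 to 1847. JAK1, a kinase bound to gp130, was the member below, at 10.60 and 10.02 against 10.74 to 11.07 (difference -0.57, adjusted p = 0.713). The list median was 0.04, beside 0.02 over all genes.

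NPNT was 9.47, 8.94, 9.09 and 8.71 in parental cells and 10.30 and 10.76 in R5. Its R5 values were the highest of all 14 arrays, by 0.11 over the next, the R3 selected array at 10.19. The difference from parental cells was 1.48 (SE 0.21, adjusted p = 0.0339). That call was lost in 8 of 16 alternative settings, among them quantile normalization (adjusted p = 0.0614) and the fits without parental replicate 2, 3 or 4. R7 (9.81 and 10.09) and R3 (10.19 and 9.76) also lay above the parental range, and R5 minus the other 4 sublines was 0.87 (SE 0.20, adjusted p = 0.973).

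Nephronectin acts through integrins, and 7 of 19 measured integrin genes lay above the parental range in R5 (36.8%, beside 8.33% of all genes) and 0 below. None was called. ITGA3, the alpha chain of a laminin receptor, was 10.79, 10.57, 10.07 and 10.49 in parental cells and 11.24 and 12.11 in R5. Both R5 arrays exceeded every parental array, the stable one by the wider margin, and the difference was 1.19 (SE 0.26, adjusted p = 0.183). ITGB5, a beta chain that pairs with ITGAV to bind vitronectin, was 10.35 to 11.03 in parental cells and 11.72 and 11.20 in R5, the highest of the 14 arrays (difference 0.89, adjusted p = 0.180). ITGAV itself was 11.46 and 11.55 against 10.84 to 11.06. ITGA2, ITGA6 and ITGB6 were the remaining members above the range in R5 and in at least 1 other subline. ITGB2, the beta chain of leukocyte integrins, was above in R5 alone, at 8.08 and 8.25 against a highest value of 7.94 over the other 12 arrays. ITGA8, the classical nephronectin receptor chain, was near background at 5.86 and 5.83. The list median was 0.14 against parental cells and 0.15 against the other 4 sublines. Against parental cells it was 0.12, 0.14 and 0.12 under quantile normalization, median centring and the olfactory covariate. The mean signal of the list was 8.82 and 8.85 in R5 and 8.49 to 8.64 in parental cells. It was also high in R3 (8.74 and 8.96) and R7 (8.73 and 8.73), while R1 was 8.72 and 8.56 and R6 8.54 and 8.53. The high integrin list was therefore not particular to R5.

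Basement membrane and matrix genes were mixed. Of 31 measured, 6 were above and 2 below the parental range (25.8% outside, beside 15.8% of all genes). NPNT was the only call, and the list median was 0.04, which turned to -0.00348 with the olfactory covariate. NID2, which links laminin and collagen IV networks, was 10.98 and 11.95 in R5 against 9.55 to 10.25 in parental cells (difference 1.61, adjusted p = 0.189), and the other sublines held 10.79 to 12.32. LAMA1 was 9.43 and 9.58 against 8.74 to 8.90, and FBN1 was 7.68 and 7.29 against 6.93 to 7.09. LTBP1, which holds latent TGF-beta in the matrix, was 11.76, 11.89, 11.70 and 11.74 in parental cells and 10.44 and 10.23 in R5. It fell by 1.44 on the log2 scale (SE 0.15, adjusted p = 0.00767), the smallest adjusted p of the comparison, and its call was kept in 14 of 16 alternative settings. Every resistant array was below the parental range for LTBP1, from 10.23 to 10.99, so its low level was shared. VIT (vitrin) was 9.22, 9.57, 9.55 and 9.41 in parental cells and 7.31 and 7.44 in R5. It fell by 2.06 (SE 0.25, adjusted p = 0.0149), the largest change among called genes, and all 10 resistant arrays were again below the parental range. Of 22 mesenchymal genes, 0 were outside the range in either direction, beside 15.8% of all genes.

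LETM2 was 7.68, 7.40, 7.35 and 7.36 in parental cells and 8.44 and 8.80 in R5. The R5 arrays were the highest of the 14, 0.28 above the next, the R7 selected array at 8.16, and this was the largest gap above all other arrays of any gene. The difference from parental cells was 1.18 (SE 0.14, adjusted p = 0.0149). That call was lost in 4 of 16 alternative settings, among them median centring (adjusted p = 0.0615). The difference was 0.85 against the other 4 sublines (SE 0.13, adjusted p = 0.151). R3 (8.02 and 8.12) and R7 (8.16 and 7.86) lay above the parental range too. LETM2 sits on chromosome 8 beside FGFR1. Of its 10 nearest measured neighbours, LSM1, BAG4, NSD3, TACC1 and HTRA4 were above the parental range, by mean differences of 0.21 to 0.46, FGFR1 was below (difference -0.25), and none was called. BAG4, for example, was 9.76 and 9.68 in R5 against 8.99 to 9.42. In a wider list of 23 genes around and including LETM2, 10 were above and 2 below (52.2% outside, beside 15.8% of all genes). The median was 0.12, or 0.17 against the other 4 sublines. The mean signal of this list was 9.31 and 9.43 in R5 and 9.08 to 9.27 in parental cells. R1 was as high, at 9.38 and 9.34, whereas R3 was 9.20 and 8.96, R6 9.04 and 9.07 and R7 9.31 and 9.18. Fewer of the nearest neighbours of OSMR and NPNT were outside the range. Among the 10 nearest to OSMR only WDR70 was outside the range (difference -0.29), and among those of NPNT only SGMS2 (0.42) and DKK2 (-0.22).

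Of 20 genes of the LETM1 family and mitochondrial cation transport, 3 were above the parental range and 2 below (25% outside, beside 15.8% of all genes), and LETM2 was the only call. PHB1, a scaffold of the inner membrane, was above with a difference of 0.22, as was the outer membrane channel VDAC3 (0.28), and SMDT1, a uniporter subunit, was below (-0.34). LETM1 was 9.59 and 9.54 against 9.32 to 9.65, and MCU, the pore of the mitochondrial calcium uniporter, was 11.43 and 11.03 against 10.999 to 11.37. MICU2, a gatekeeper of that pore, was 7.08, 7.51, 6.91 and 7.26 in parental cells and 6.61 and 6.10 in R5, outside the range in R5 alone (difference -0.83, adjusted p = 0.306). MICU2 lies on chromosome 13, where many genes were low in R5.

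CACNA2D1 was 6.49, 6.26, 6.46 and 6.23 in parental cells and 7.04 and 7.34 in R5. These were the highest of the 14 arrays, 0.12 above R7 at 6.92. The difference from parental cells was 0.83 (SE 0.11, adjusted p = 0.0168), a call lost in 6 of 15 alternative settings. From the mean of the other 4 sublines the difference was 0.81 (SE 0.10, adjusted p = 0.0480). CACNA2D1 was the only gene of 18398 (0.00544%) called between R5 and the other sublines, where 618 genes (3.36%) had an unadjusted p under 0.05. R1 (5.84 and 5.81) and R3 (5.98 and 6.06) were below the parental range and R6 (6.77 and 6.73) and R7 (6.91 and 6.92) above it. The parental values lie at the level of the olfactory receptor means of the same arrays (6.16 to 6.71), and R1 and R3 below it, so the gene was not shown to be above background there, the size of its differences is uncertain, and the filter at the 40th percentile of signal removes it. Against R6 alone the difference was 0.44 and against R7 alone 0.27, and neither was called (adjusted p = 0.9999 for both). The call against the other 4 sublines was lost without either R5 array (difference 0.96 without the selected array and 0.66 without the stable array). It was lost without R1 (adjusted p = 0.899) or R3 (0.199). It was also lost under quantile normalization (0.0996), median centring (0.143), the olfactory covariate (0.116) and the fit of the resistant arrays with growth condition (0.229), and was made in 6 of 17 alternatives. PTPRM, a receptor tyrosine phosphatase of cell contacts, came next at 7.82 and 8.22 in R5 against 7.49 to 7.75 in parental cells. It was 0.80 above the other 4 sublines (adjusted p = 0.0895) and outside the range in R5 alone. Against R1 singly, 5 genes were called, and against R3 singly 2, with CACNA2D1 and PTPRM in both sets. Against R6 and R7 singly 0 were called, with 651 and 111 genes at an unadjusted p under 0.05.

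NEDD9, a scaffold for focal adhesion kinase and Src signalling, was 8.71, 8.96, 8.78 and 8.69 in parental cells and 7.87 and 7.67 in R5, and fell by 1.01 (SE 0.13, adjusted p = 0.0149). R3 was similar at 7.92 and 7.62. The NEDD9 call was lost in 4 of 16 alternative settings. LGALS14 was 10.68 to 11.04 in parental cells and 9.62 and 9.78 in R5 (difference -1.18, SE 0.18, adjusted p = 0.0434). Its neighbours LGALS13, LGALS16 and LGALS17A are related copies with differences of -0.68, -0.55 and -0.37, none called, and how the probes of the array divide their signal is not known here, so the gene behind this value is uncertain. ECH1 was 12.58 to 12.77 in parental cells and 12.04 and 12.16 in R5, a fall of 0.56 (SE 0.09, adjusted p = 0.0471). ECH1 and LGALS14 lost their calls in 9 of 16 alternative settings each, for LGALS14 among them the fit without R7 (adjusted p = 0.0540). R3 matched R5 in both genes, at 9.46 and 9.35 for LGALS14 and 12.18 and 12.14 for ECH1.

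ATF4 was 11.42, 11.29, 10.87 and 11.21 on the parental arrays and 9.93 and 9.80 in R5. Both R5 arrays were well below the lowest parental array, and the difference was -1.33 (SE 0.18, adjusted p = 0.0248). The call was lost in 6 of 16 alternative settings, including the fits without parental replicate 1, 2 or 4. R6 (10.06 and 9.81) and R7 (9.94 and 9.74) were as low, and R3 (10.64 and 10.16) was lower than parental cells to a smaller degree, so the low ATF4 was not particular to R5. Of the 10 measured genes nearest to ATF4 on chromosome 22, 6 were below the parental range and 4 within it, and none was called. Those below were SNORD83A (-0.51), SNORD43 (-0.63), SYNGR1 (-0.39), MGAT3 (-0.53), MIEF1 (-0.60) and RPS19BP1 (-0.32), and those within were CACNA1I (0.05), ENTHD1 (-0.04), FAM83F (0.13) and TNRC6B (-0.29).

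ASNS, the asparagine synthetase gene and a classical target of ATF4, was lower in R5 than on any other array. It was 10.10, 9.89, 9.98 and 9.72 in parental cells and 8.97 and 9.02 in R5. The next lowest of the other 12 arrays was R3 selected at 9.41, a gap of 0.39 that was the largest below all other arrays of any gene. The difference was -0.93 from parental cells (SE 0.22, adjusted p = 0.238) and -0.80 from the other 4 sublines (SE 0.20, adjusted p = 0.973), neither of which was called. CHAC1, which degrades glutathione and is another ATF4 target, was 8.69, 8.71, 8.59 and 8.69 in parental cells and 8.42 and 8.31 in R5, the lowest of all 14 arrays. The difference was -0.30 (adjusted p = 0.838), and -0.48 against the other 4 sublines. The R1 stable array stood at the other end for both genes, at 10.60 for ASNS and 9.59 for CHAC1.

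ATF4 is known to bind, with C/EBP partners, an element that can be written TGATGNAA, and the promoters of ASNS and CHAC1 are shown because they are the 2 stress genes low in R5 that carry these letters in the 250 bases before the annotated start. The sequences are from RefSeq, build GRCh38.p14, read 5′ to 3′ on the strand of the gene, and capitals mark the match on either strand. The ASNS stretch is chr7:97872409-97872658 on the minus strand with its match at position -68, and the CHAC1 stretch is chr15:40953221-40953470 on the plus strand with its match, the reverse complement, at position -209, where -1 is the base just before the start.
ASNS: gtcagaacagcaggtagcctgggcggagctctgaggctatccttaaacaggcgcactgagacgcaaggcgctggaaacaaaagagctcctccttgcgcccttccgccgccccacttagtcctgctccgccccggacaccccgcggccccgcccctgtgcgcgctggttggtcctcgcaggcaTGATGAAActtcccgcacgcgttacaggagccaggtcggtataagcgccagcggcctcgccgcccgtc
CHAC1: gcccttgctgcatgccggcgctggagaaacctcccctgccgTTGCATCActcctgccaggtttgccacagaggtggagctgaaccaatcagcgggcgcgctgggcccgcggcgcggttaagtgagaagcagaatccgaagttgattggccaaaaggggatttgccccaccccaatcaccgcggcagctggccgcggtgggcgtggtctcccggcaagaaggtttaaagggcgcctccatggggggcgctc
Of 27305 promoter entries of this length, 3.19% held the letters, and of those of 14227 measured genes 2.19%. Among 20 of the 21 stress genes that matched an entry, 4 did: ASNS and CHAC1, which were below the parental range, and ATF3 and HERPUD1, which were not outside it. A match is a run of letters and not a shown binding site.

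Over the 21 genes of the integrated stress list, 8 were below the parental range in R5 (38.1%, beside 7.52% of all genes) and 0 above, with ATF4 the only call. The list median was -0.22, and -0.25 against the other 4 sublines. The mean signal of the list was 9.69 and 9.52 on the selected and stable R5 arrays, against 9.70 to 9.91 in parental cells. It was 9.77 and 9.59 in R6 and 9.88 and 9.49 in R7, but 10.06 and 10.14 in R1 and 9.91 and 10.09 in R3. The low list mean of R5 was thus shared by the stable arrays of R6 and R7. After quantile normalization 7 were below and 2 above, and after median centring 6 and 0. The median was -0.21 after quantile normalization, -0.22 after median centring and -0.10 with the olfactory covariate. PSAT1 and PHGDH, enzymes of serine synthesis, were 10.49 and 9.89 against 10.58 to 10.66, and 12.08 and 11.86 against 12.13 to 12.40. SLC7A5, a transporter of large amino acids, was 11.62 and 11.37 against 11.74 to 11.96, and TRIB3, a feedback inhibitor of ATF4, was 8.46 and 8.69 against 8.70 to 9.02. TRIB3 and PHGDH were outside the range in R5 alone. DDIT3, the stress factor CHOP, was not part of this pattern, at 9.11 and 8.66 against 8.42 to 9.10. Outside the list, and chosen after their values were seen, STC2 (7.69 and 7.45 against 8.05 to 8.30), GARS1 (10.82 and 10.77 against 11.27 to 11.47), CEBPG (9.21 and 8.97 against 9.32 to 9.58) and VEGFA (8.63 and 8.37 against 8.80 to 8.96) were also below in R5 alone.

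**Figure D2:**
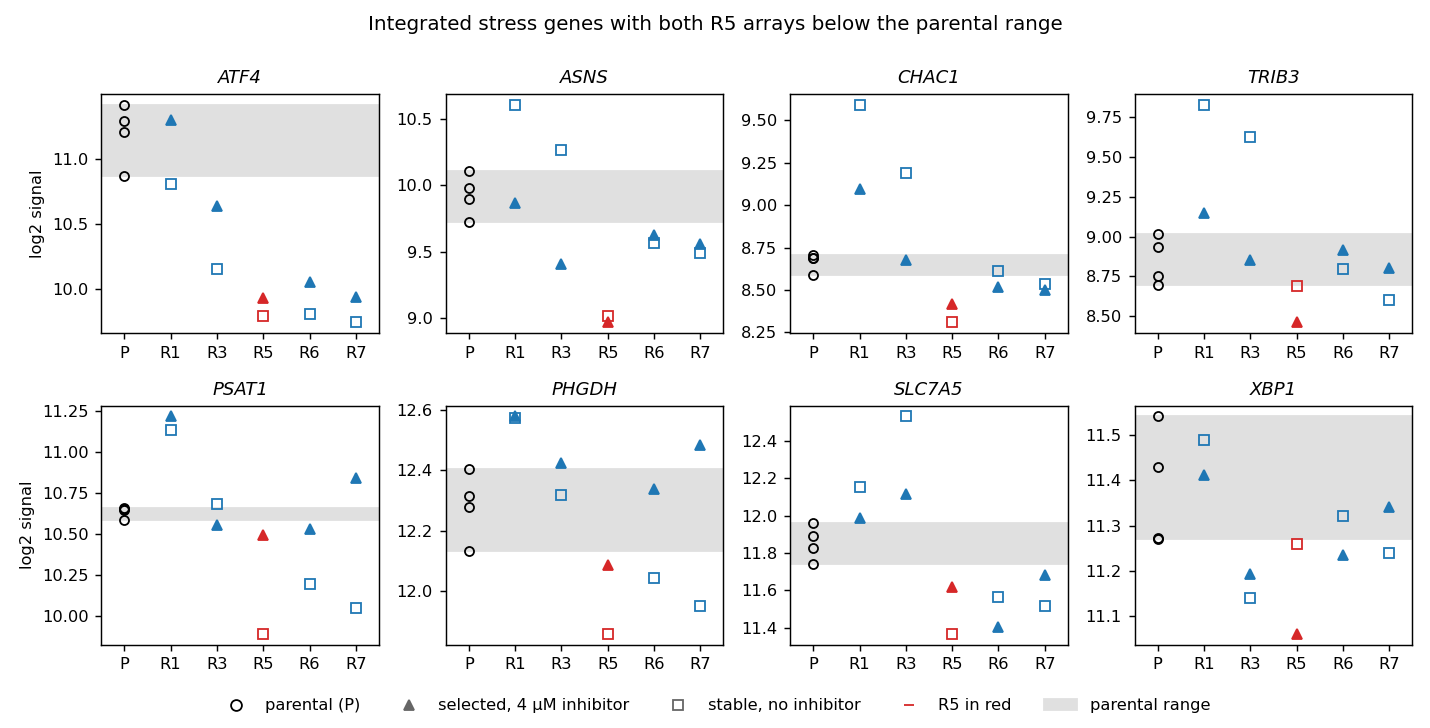
Log2 signal of the 8 integrated stress genes with both R5 arrays below the parental range, with the marks of the plot of called genes. ATF4 is as low in R6 and R7 as in R5, whereas both R5 arrays are the lowest of all 14 for ASNS and CHAC1.

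CCNE1, the gene whose product activates CDK2, was 10.89, 11.13, 10.77 and 10.98 in parental cells and 11.22 and 10.70 in R5, with the R5 arrays on opposite sides of the parental range and a difference of 0.02. CDK2, the target of the inhibitor, was 9.82, 9.93, 9.71 and 9.73 in parental cells and 10.25 and 10.10 in R5. Both R5 arrays were above the range, as were both arrays of R1 and of R7, and the difference of 0.38 was not called (SE 0.12, adjusted p = 0.465). Of 20 genes of the CDK2 and cyclin E list, CDK2 was the only member above and WEE1, the kinase that restrains CDK1 and CDK2, the only member below, at 9.80 and 9.05 against 10.22 to 10.80 (difference -1.14, adjusted p = 0.386). The CDK inhibitor genes CDKN1A and CDKN1B differed by 0.08 and 0.14 and were not outside the range. In the CDK4, CDK6 and RB list 3 of 18 genes were above and 3 below (33.3% outside). CDK6 was 10.15 and 10.34 against 10.53 to 11.10, RB1 was 9.70 and 9.27 against 9.74 to 9.97, and cyclin D1 (CCND1) was 11.08 and 11.63 against 10.64 to 11.08. The 3 above were 0 after median centring. Of 38 DNA replication genes 5 were above and 1 below (15.8% outside, as of all genes), with differences from -0.31 to 0.42, and 11 were above and 3 below after quantile normalization. Of 34 mitosis genes 0 were above and 4 below (CCNB1, KIF20A, PTTG1 and INCENP, 11.8%). None of the genes in these lists was called.

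Several other gene groups had more members on 1 side of the parental range than on the other, with no calls. They are given beside the 8.33% of all genes above and 7.52% below. Of 18 immediate early genes, which respond within minutes to growth factors and handling, 10 were below and 0 above (55.6% outside), with a median of -0.34. FOS was 10.45, 11.26, 10.44 and 11.31 in the parental arrays and 10.16 and 8.17 in R5, and EGR1 was 12.27, 12.82, 12.14 and 12.81 against 11.93 and 10.69. Parental replicates 2 and 4 were higher than 1 and 3 in both genes, and against the other 4 sublines the list median was only -0.10. Cholesterol synthesis genes had 6 of 19 below, 1 above and 12 within (36.8% outside), with a median of -0.24, or -0.22 against the other sublines. HMGCS1, an early enzyme of that pathway, was 9.28 and 9.90 against 10.23 to 10.55, and SREBF2, its master regulator, was 8.42 and 9.04 against 9.29 to 9.58. Ribosomal protein genes had 9 of 28 below, 0 above and 19 within (32.1% outside), by small amounts (median -0.12, but -0.02 against the other sublines). RPS9, for example, was 12.34 and 12.38 against 12.79 to 12.92.

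Of 29 interferon response genes, 10 were above the parental range (34.5%, beside 8.33% of all genes), 0 below and 19 within, with a median of 0.14, which was 0.02 against the other 4 sublines. RIGI, a sensor of viral RNA, was 9.86 and 9.91 against 8.86 to 9.53 (difference 0.64, adjusted p = 0.267), and IFI6 was 9.51 and 9.70 against 8.84 to 9.09. Lysosome and autophagy genes had 7 of 32 above (21.9%) and 0 below, with a median of 0.12 against parental cells and -0.03 against the other sublines. The 7 were 12 after quantile normalization and 4 after median centring, and the median was 0.25 with the olfactory covariate. None of the 10 interferon and 7 lysosome genes was outside the range in R5 alone. NFE2L2, which encodes the antioxidant regulator NRF2, was 11.58 and 11.28 against 10.70 to 11.07, while 27 of 30 genes of its list were within the range.

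By the range rule alone, 2916 genes (15.8%) were outside in R5, 1533 above (8.33%) and 1383 below (7.52%). Some genes meet this rule by chance, and how many was not tested, so the counts are descriptions. Most were outside by little: the median distance beyond the nearest parental array was 0.06, and the smallest, for ZNF213, was 1.38e-05, while LOC101928697 was inside by a hair (distance -3.18e-05). Only 67 genes were outside by at least 0.5, 21 above and 46 below, and 11 by at least 1, 4 above and 7 below, so at these margins the balance turned to genes below. With the filter on low signal it was 991 above and 1061 below. A further 769 genes had 1 R5 array above and the other below the parental range. The count of 2916 can only stay or rise when an R5 or parental array is left out, because the rule is then easier to meet. It was 5920 without parental replicate 3, 6909 without the selected R5 array and 6700 without the stable R5 array. In the other sublines 7036 genes were outside in R1, 3097 in R3, 3308 in R6 and 2002 in R7. The genes farthest outside, chosen after their values were seen, included GABRA2, a GABA receptor subunit. It was 8.997, 8.49, 7.87 and 8.02 in parental cells and 10.82 and 10.96 in R5 (difference 2.54, adjusted p = 0.0769), and R7 was close at 10.14 and 10.83. CD44, the hyaluronan receptor, was 10.51 and 10.31 against 8.50 to 9.09 (difference 1.56, adjusted p = 0.183), the chemokine CXCL1 was 9.76 and 9.64 against 10.77 to 11.22 (difference -1.36, adjusted p = 0.143), and CP (ceruloplasmin) was 7.57 and 7.08 against 9.16 to 9.74 (difference -2.09, adjusted p = 0.450).

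**Figure D3:**
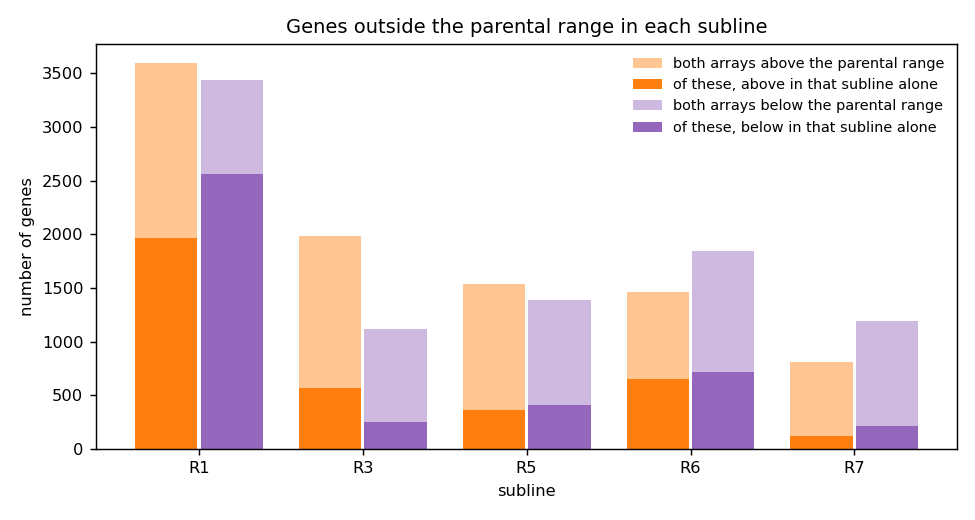
Number of genes, of 18398, with both arrays of a subline above (orange) or below (purple) the range of the 4 parental arrays. The darker part counts genes outside on that side in that subline alone. In R5 this holds for 357 of 1533 genes above and 411 of 1383 below.

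In R5 alone 768 genes (4.17% of all, 26.3% of the 2916) were outside the parental range, 357 above (1.94%) and 411 below (2.23%). The count was 1217 without parental replicate 3, 3388 without the selected R5 array, 2607 without the stable one, and 912 when R7 was not counted among the other sublines. None of these genes was called against parental cells. Their median distance beyond the range was 0.04 and the largest 0.58, beside 0.06 and 1.82 for all 2916. That largest distance was in NIPSNAP2, a mitochondrial protein gene, at 10.46, 10.54, 10.66 and 10.40 in parental cells and 9.81 and 9.74 in R5 (difference -0.74, SE 0.16, adjusted p = 0.187). The R7 stable array was close at 9.85. KCNIP1, a regulator of potassium channels, was 8.48 and 8.34 in R5 against 9.06 to 9.41, although the R7 stable array was lower still at 7.90. PLXDC2 was 7.96 and 7.15 against 8.50 to 8.83, with the R3 stable array at 6.91. Among genes above the range in R5 alone, PYGL, the liver form of glycogen phosphorylase, was 10.17 and 9.86 against 9.23 to 9.55, and R5 exceeded all 12 other arrays by 0.02 (difference from the other 4 sublines 0.66, adjusted p = 0.464). GDA, guanine deaminase, was 11.21 and 11.24 against 10.12 to 10.89, yet the selected arrays of R3, R6 and R7 were higher, at 11.34, 11.27 and 11.36. HPSE, heparanase, was 9.99 and 9.60 against 8.77 to 9.30, with R7 selected higher at 10.10. For several of these genes, then, being outside in R5 alone meant that 1 array of another subline was also outside while its partner was not.

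A stricter count took genes in which both R5 arrays were beyond all 12 other arrays. There were 173 (0.94%), 88 above (0.478%) and 85 below (0.462%), with a median gap of 0.04. Arrays of different sublines also met such a rule, the R5 selected array with the R7 stable array in 300 genes. The count by itself therefore does not set R5 apart, and how many genes would meet the rule by chance was not tested. After LETM2 the widest gaps above were in PNP, purine nucleoside phosphorylase (0.25), NOS1, the neuronal nitric oxide synthase (0.16), ITGB2 (0.13), CACNA2D1 (0.12), NPNT (0.11) and P2RY12, a receptor for ADP (0.11). PNP was 11.77, 11.70, 11.71 and 11.46 in parental cells and 12.32 and 12.30 in R5, and NOS1 was 10.58, 10.53, 10.06 and 10.50 against 11.02 and 11.32. After ASNS the widest gaps below were in MDK, the growth factor midkine (0.27), and OXTR, the oxytocin receptor (0.27). MDK was 11.42, 11.42, 11.37 and 11.46 in parental cells and 10.99 and 10.86 in R5, with a difference of -0.54 from the other 4 sublines (SE 0.09, adjusted p = 0.318). OXTR was 8.998, 9.41, 9.05 and 9.33 in parental cells and 8.20 and 8.18 in R5 (difference -1.005, adjusted p = 0.163). KPTN, LENG8 and UIMC1 followed with gaps of 0.14, 0.14 and 0.12. None of the genes other than LETM2, NPNT and CACNA2D1 was called in either comparison.

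Genes outside the range were unevenly spread over the chromosomes. Chromosome 13 stood at the low extreme, with 87 of 316 measured genes below the parental range (27.5%, beside 7.52% of all genes) and 3 above, 38 of the 87 in R5 alone. Its median difference was -0.12 against parental cells and -0.08 against the other 4 sublines, while that of the other sublines against parental cells ran from -0.10 in R3 to 0.01 in R1. Genes there included the mitochondrial MICU2, the cornified envelope gene SCEL (6.56 and 6.50 against 6.96 to 7.85) and the tumour suppressor RB1. Chromosome 5, which holds OSMR, had 158 of 780 below (20.3%) and 22 above. The genes around OSMR were not low. In a list of 18 measured genes around and including OSMR, 1 was above and 1 below (11.1% outside), with a median of 0.06. Chromosome 22 had 83 of 423 below (19.6%), but only 8 of the 83 in R5 alone, and its median was 0.04 above that of the other sublines. In the opposite direction, chromosome 14 had 87 of 587 above (14.8%), chromosome 4 had 103 of 709 (14.5%), chromosome 18 had 38 of 264 (14.4%) and chromosome 12 had 131 of 982 (13.3%). Under quantile normalization and median centring, chromosome 13 had 105 and 80 genes below and chromosome 5 had 202 and 150. DNA copy number was not measured in these data.

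**Figure D4:**
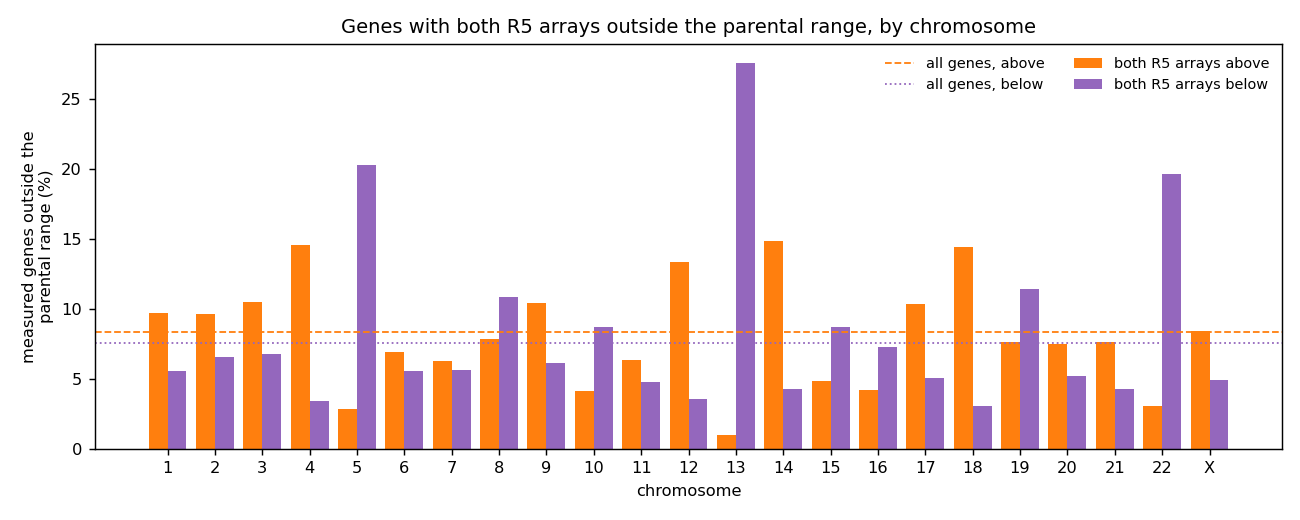
Percentage of measured genes on each chromosome with both R5 arrays above (orange) or below (purple) the parental range, and dashed lines for all genes (8.33% above and 7.52% below). Chromosome 13 has 27.5% of its genes below and 0.949% above, followed by chromosomes 5 (20.3% below) and 22 (19.6% below).

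Stretches of 25 neighbouring genes were ranked by their median R5 difference, and some of the extremes are given. Their counts outside the range come from the same values, so they follow in part from the choice. Over all genes 7.52% were below. Whether low genes group more than by chance was not tested. The lowest median over 25 neighbouring genes was -0.41, from GMFG to ZNF780A on chromosome 19, where 18 of 25 were below and 0 above. This stretch holds LGALS14, the RNA-binding factor ZFP36 (-1.17), MED29 (-0.71) and RPS16 (-0.35), and it was as low in R3 (median -0.45). On chromosome 13 the genes from KBTBD7 to COG3 had a median of -0.35 with 17 of 25 below. There R3 was at -0.22, R6 and R7 at -0.17, and R1 at 0.02, and the median of R5 minus the other 4 was -0.18. AKAP11 (-0.62), RGCC (-0.62), NUFIP1 (-0.60) and TSC22D1 (-0.54) were among its members. On chromosome 22 the genes from FAM227A to ATF4 had a median of -0.34 with 17 of 25 below, R6 was lower at -0.43 and R7 similar at -0.37. The highest such median, 0.31, was from OR4Q3 to RNASE9 on chromosome 14. The first 14 genes there are olfactory receptor genes near background, and the 5 genes above the range were TTC5 (0.36), PARP2 (0.51), OSGEP (0.28), PIP4P1 (0.26) and PNP (0.65). Over this stretch the median of R5 minus the other 4 sublines was 0.35, and R1 and R3 were at -0.27 and -0.22 against parental cells. Most genes of the stretch are at background, and the olfactory receptor mean over all 340 genes was itself low in R1 (6.06 and 6.18, beside 6.50 and 6.60 in R5), so the part of background signal in this median was not tested.

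**Figure D5:**
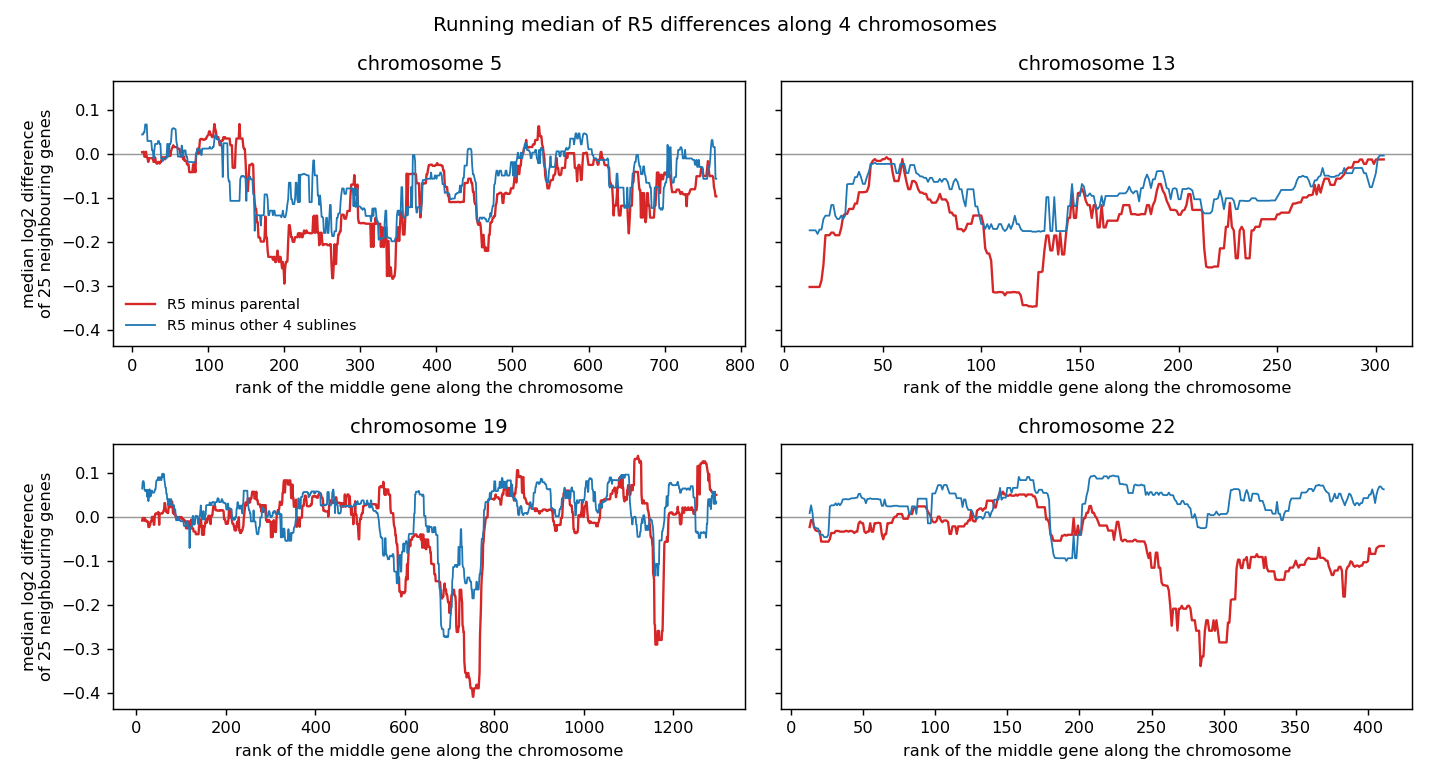
Running median of the R5 difference over 25 neighbouring genes along chromosomes 5, 13, 19 and 22, against the rank of the middle gene. Red is R5 minus parental and blue is R5 minus the other 4 sublines. On chromosome 22 the red line dips to -0.34 while the blue line is at -0.03, and on chromosome 13 both lines lie below 0 at every rank.

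The R5 selected minus stable difference was compared with that of the other 4 sublines, 1 difference against 4, with limma, where the spread comes from the other sublines alone. No gene was called (0 of 18398, 0%), and 195 (1.06%) had an unadjusted p under 0.05. The genes that follow are among the largest differences and are values only. FLG, a structural protein of cornified epithelium, was 11.80 in the selected and 9.89 in the stable R5 array, a difference of 1.91, where the other sublines ran from -1.95 to 0.40. CCNA1, a cyclin that can activate CDK2, was 10.69 and 8.98, a difference of 1.71 against -1.13 to 0.45. MFAP5, a microfibril protein, was 8.29 and 6.62 (1.67 against -0.22 to 0.86), and LMCD1 was 10.07 and 9.42 (0.64 against -0.75 to -0.25). Lower in the selected array were F2R, the thrombin receptor, at 8.46 and 10.43 (-1.96 against -1.05 to -0.31), complement C3 at 11.05 and 12.19 (-1.14 against -0.45 to 0.77) and ALDH1A1, an aldehyde dehydrogenase, at 9.58 and 10.08 (-0.50 against 0.27 to 1.15). The adjusted p was 0.99997 for each of these 7 genes. With 1 array per state these values have no replicate check within R5.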

How the data were processed

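RNA was measured on 14 Affymetrix whole-transcript arrays, with total RNA isolated by a mirVana kit per the labels' protocols. The deposited values are taken as log2 signal from their range of 4.34 to 14.9. How the authors corrected, normalized and summarised the probes, and in which log base, is not given in the sources used here. No further normalization was applied. Arrays have no depth, and their number limits the precision. Of 32295 rows, 19148 name 1 gene in the platform annotation, 1376 several and 11771 none, and the row with the highest mean stood for each of 18398 genes. Symbols were updated through RefSeq gene IDs, which matched for 19118 rows.

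Differences were fitted in limma 3.58.1 (R 4.3.3) over 6 groups by subline, with Benjamini-Hochberg adjustment over all genes. The script was tested on simulated data. The members and the 41 gene lists (834 of 908 symbols measured) were chosen with earlier results of these data known. Genes named are OSMR, NPNT, LETM2, CCNE1 and CDK2, up to 12 called genes in each direction, the 12 widest gaps from the other 12 arrays in each direction, from every list the 4 members with the lowest p at most, the 6 largest growth-state differences in each direction and the 5 genes on each side of the 3 markers. Uncharacterised loci, small RNAs, olfactory receptors and keratin-associated proteins were skipped. Other genes are named after their values were seen: SNORD42A, PTPRM, LGALS13, LGALS16, LGALS17A, further members of the lists, the extra genes beside the stress list, the genes farthest outside the range or outside in R5 alone, those at its edge and those along the chromosomes. The alternatives changed the scaling, the filter on low signal, the row rule, the variance model, the covariates and the arrays included.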

Additional observations from a re-analysis of the deposited data

Results flagged for a closer look

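Among 211 named genes, 12 had 1 parental array apart from the other 3, the gap to its nearest neighbour divided by the whole parental range (given in parentheses) being above Dixon's 95% critical value. Chance passes that limit in about 1 in 20 groups. Parental replicate 3 was the odd array for ABCC1 (0.914769), EPHA1 (0.837979), ICAM1 (0.955262), NOS1 (0.836815), PTTG1 (0.855865), TYK2 (0.890408) and WIPI1 (0.83366). Parental replicate 1 was odd for FLG (0.857764), HERC5 (0.889048), LEF1 (0.957652) and LETM2 (0.858849), and parental replicate 2 for TBCK (0.855281). For LETM2 the odd parental value, 7.68, was the one nearest to R5, and for NOS1 the odd value, 10.06, was the one farthest from R5.

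CACNA2D1 differed between R5 and the other 4 sublines by 0.809775 in the limma test of that difference (adjusted p = 0.0480). Across all 32295 rows tested together, 1 row outside the gene table was called between R5 and parental cells. It names no gene.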

How the results depend on the processing

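The 11 calls between R5 and parental cells were 17 after quantile normalization, 2 after median centring, 23 with the olfactory covariate, 47 with R5 and parental arrays only and 48 with a growth term, and ran from 0 to 14 when 1 array was left out. None of the 11 genes changed direction. The 1 call against the other 4 sublines was 0 after quantile normalization, median centring, the filter at the 40th percentile, the olfactory covariate, a minimum difference of 1, the fit of 10 resistant arrays with growth condition, and leaving out R1, R3 or either R5 array (0 to 0). It was 2 with trended and robust variance and without R7. Added after seeing the data, comparisons with R1, R3, R6 and R7 singly gave 5, 2, 0 and 0 calls, and OSMR reversed to -0.42 against R3. Of the 2916 genes outside the range, 67 were so by 0.5 and 11 by 1, there were 5056 after removal of the olfactory slope, and leaving out 1 array gave 3580 to 6909. The count in R5 alone, 768, was 481 with the filter, 37 and 4 when the margins of 0.5 and 1 were set for every subline, and 796 to 3388 when 1 array was left out. The 173 genes beyond all 12 arrays became 312 after removal of the olfactory slope. Leaving out an R5 or parental array makes the range rule easier to meet, so the count of 2916 could only stay or rise. The cause of the other changes was not tested. No paired analysis of R5 and parental arrays was possible because the labels give no pairing between them.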

Other observations

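Other gene groups can be set beside the 8.33% of all genes above and 7.52% below the parental range in R5 (15.8% outside). Of 19 BCL2 family genes 1 was above and 0 below, and of 33 oxidative phosphorylation genes 2 were above and 3 below, with 5.26% and 15.2% outside and medians of -0.03 and 0.02. Of 23 ABC transporter genes 3 were above and 2 below (21.7% outside), and of 43 WNT pathway genes 4 were above and 4 below (18.6% outside). Antigen presentation genes had 3 of 13 above and 0 below (23.1% outside), with a median of 0.13 against parental cells and 0.06 against the other 4 sublines. None of the genes in these groups was called.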
